A study of Homo sapiens with 6 samples.

Results

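Metallothioneins are small cysteine-rich proteins that bind zinc and copper, and their genes, together with the zinc exporter gene SLC30A1, are the textbook targets of the zinc-sensing transcription factor MTF1. The group described here was chosen by name: the metallothionein genes MT2A, MT1X, MT1E, MT1F and MT1G, the factor gene MTF1, and SLC30A1. Of these 7 genes, 5 had a row among the 18625 genes of the expression table, and all 5 of those passed the filter on low values, a mean normalized count of at least 10 over the libraries. MT1E and MT1G were found neither by symbol nor by Ensembl identifier, so their levels were not analysed here, and the lowest mean of any gene listed was 5.90. The cells were NB4, a human acute promyelocytic leukemia line that carries the PML-RARA fusion, and each library came from total RNA. One group received DMSO, the solvent, and the other 10 μM Tan I (Tanshinone I, a diterpene of the herb Salvia miltiorrhiza) in DMSO, each for 3 days and each with 3 libraries. The labels do not state whether the 3 libraries of a group came from separate cultures, so the p-values measure only the spread between these libraries, which may be technical.

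In this pathway free zinc binds the zinc fingers of MTF1, which then occupies metal response elements in the promoters of its targets. Metallothionein buffers the metal in the cytosol, SLC30A1 carries zinc out across the plasma membrane, and importers of the SLC39 family bring it in. Metallothionein genes also answer to copper, cadmium, oxidative stress and glucocorticoids. The metallothionein genes lie in a cluster on chromosome 16. MT2A occupies chr16:56608584-56609497 on the plus strand (GRCh38, GENCODE 44) with 3 exons in its canonical transcript, MT1F occupies chr16:56657731-56660698 and MT1X chr16:56682470-56684196, both also on the plus strand with 3 exons. MT1E (chr16:56625475-56627112, plus strand) and MT1G (chr16:56666730-56668065, minus strand) are annotated between MT2A and MT1X. MTF1 lies at chr1:37809574-37859592 on the minus strand with 11 exons and SLC30A1 at chr1:211571568-211579161 on the minus strand with 2 exons.

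The promoters of the metal-induced members are shown because the metal response element is the sequence that ties them to MTF1. Each sequence below is the 250 bases upstream of the annotated start, 5′ to 3′ on the strand of the gene, from RefSeq (GRCh38.p14), with the core element in capitals. The core searched was TGCACNC or TGCGCNC, which on the opposite strand reads GNGTGCA or GNGCGCA, and a match is a match of letters only.
MT2A promoter, chr16:56608334-56608583, plus strand: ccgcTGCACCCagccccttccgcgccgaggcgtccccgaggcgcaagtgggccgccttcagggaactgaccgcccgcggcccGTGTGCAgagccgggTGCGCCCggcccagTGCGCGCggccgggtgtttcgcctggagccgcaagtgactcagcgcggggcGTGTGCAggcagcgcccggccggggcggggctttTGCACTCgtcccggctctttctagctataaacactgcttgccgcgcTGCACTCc
MT1X promoter, chr16:56682220-56682469, plus strand: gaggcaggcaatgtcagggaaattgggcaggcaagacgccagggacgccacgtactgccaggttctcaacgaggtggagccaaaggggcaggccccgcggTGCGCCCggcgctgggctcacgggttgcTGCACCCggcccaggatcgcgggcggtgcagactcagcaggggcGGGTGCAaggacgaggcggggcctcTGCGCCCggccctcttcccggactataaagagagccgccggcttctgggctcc
SLC30A1 promoter, chr1:211579162-211579411, minus strand: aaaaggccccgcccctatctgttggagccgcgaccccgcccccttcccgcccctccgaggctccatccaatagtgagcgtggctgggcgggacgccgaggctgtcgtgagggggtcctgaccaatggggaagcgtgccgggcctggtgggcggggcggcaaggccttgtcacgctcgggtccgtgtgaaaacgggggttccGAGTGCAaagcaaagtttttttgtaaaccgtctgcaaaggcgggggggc
The MT2A window held 7 matches, 5 on the strand of the gene and 2 on the other, and the nearest ended 1 base from the start. The MT1X window held 4, of which 3 were on the strand of the gene. The SLC30A1 window held 1, on the opposite strand, and the MTF1 window held 0. Of 35116 promoters of the same length, 0.0313% held at least as many matches as MT2A and 0.370% at least as many as MT1X, while 24.8% held at least 1, as SLC30A1 did. Of the 7 members 4 were matched to the promoter table, and MT1E, MT1F and MT1G were not.

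**Figure D1:**
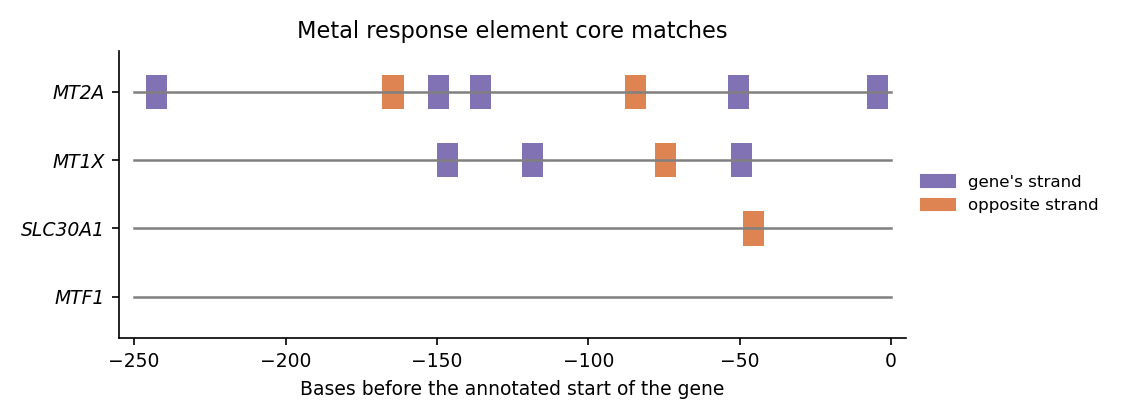
Matches to the core metal response element in the 250 bases before the start of each member with a promoter entry, by distance from the start in bases (x axis), with the strand of each match marked. MT2A has 7 matches spread from 1 to 239 bases before the start, MT1X has 4, SLC30A1 has 1 and MTF1 has 0.

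To place the members in the data set, the libraries were first compared as a whole. Recovered reads on the listed genes ran from 21502760 to 31679138 per library. The first principal component of the tested genes held 70.8% of the variance, and its scores did not follow the treatment: DMSO replicate 2 and Tan I replicate 3 stood at 41.1 and 71.6, and the other libraries between -48.0 and 8.65. Of 8 promyelocyte marker genes 7 were listed (ELANE was not), with MPO, the granule myeloperoxidase, at 62588 ± 1950 normalized counts (mean ± SD, n = 3) in DMSO. Of 7 markers of other cell types 5 were listed, HBB and KRT5 not, and their summed level was 591 to 628 normalized counts in DMSO and 538 to 655 in Tan I. The extraction note in the labels speaks of embryos, while every other label gives NB4 cells.

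MT2A, MT1X and MT1F averaged lower with Tan I than with DMSO, and none of the 3 differed beyond the spread between libraries. MT2A, the main metallothionein of most human cells, stood at 1752, 1342 and 2608 normalized counts in DMSO replicates 1, 2 and 3 and at 845, 1114 and 1718 in Tan I replicates 1, 2 and 3. All 3 Tan I libraries lay under the DMSO mean and 2 lay under the lowest DMSO library, but the groups overlapped, because Tan I replicate 3 exceeded DMSO replicate 2. The highest library was 1.94 times the lowest within DMSO and 2.03 times within Tan I. The means were 1901 ± 646 and 1226 ± 447 normalized counts (SD, n = 3), a ratio of 0.645 with a 95% confidence interval of 0.385 to 1.07. Here and for the other members the ratio is that of the group means. Its interval was converted from the limma log2 fold change, so it does not centre on that ratio. On the log2(normalized count + 1) scale the fold change was -0.64 with a standard error of 0.31, and the adjusted p in limma was 0.999. The exact two-sided permutation test gave p = 0.2, and with 3 libraries against 3 the smallest p it allows is 0.1. Being bulk RNA, these values cannot tell fewer cells making a transcript from less of it per cell.

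MT1X, a metallothionein of the MT1 subfamily, had the largest fold change of the members and also the widest spread. Its normalized counts were 133, 78.0 and 241 in DMSO replicates 1 to 3 and 43.0, 83.3 and 111 in Tan I replicates 1 to 3. DMSO replicate 3 was the highest library and Tan I replicate 1 the lowest, and 2 of the 3 Tan I libraries lay above DMSO replicate 2. The means were 151 ± 83.1 and 79.0 ± 34.0 (SD, n = 3), a ratio of 0.523 with a 95% confidence interval of 0.2498 to 1.18. The log2 fold change was -0.88 with a standard error of 0.48 (limma adjusted p = 0.999, exact permutation p = 0.3). The values rest on 81 to 309 recovered reads in DMSO and 44 to 83 in Tan I. MT1X overlaps a long non-coding RNA gene on the same strand (ENSG00000259827, not a row of the table) over 321 exon bases, 18.6% of the exon bases of MT1X, and how reads in both genes were counted is not given in the sources used here.

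MT1F, also of the MT1 subfamily, was the flattest of the 3 in DMSO. It measured 110.03, 150.3 and 133 normalized counts in DMSO replicates 1 to 3 and 71.4, 83.3 and 147 in Tan I replicates 1 to 3. Tan I replicates 1 and 2 lay below every DMSO library, and Tan I replicate 3 lay below DMSO replicate 2 only. The means were 131 ± 20.2 and 100.4 ± 40.5 (SD, n = 3), a ratio of 0.766 with a 95% confidence interval of 0.457 to 1.19, and the log2 fold change was -0.44 with a standard error of 0.30 (limma adjusted p = 0.999, exact permutation p = 0.3).

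MTF1, which codes for the zinc sensor itself, was at 386, 278 and 378 normalized counts in DMSO replicates 1 to 3 and 408, 320.4 and 256 in Tan I replicates 1 to 3. The ranges coincided almost fully, with means of 348 ± 60.0 and 328 ± 76.1 (SD, n = 3). The ratio was 0.944 with a 95% confidence interval of 0.660 to 1.33. SLC30A1, the plasma membrane zinc exporter, was at 1157, 648 and 940 in DMSO replicates 1 to 3 and 1144, 978 and 660.1 in Tan I replicates 1 to 3. DMSO replicate 2 and Tan I replicate 3 were the low libraries of their groups and the replicate 1 libraries the high ones, and the means were 915 ± 255 and 927 ± 246 (SD, n = 3). The ratio was 1.01 with an interval of 0.656 to 1.57. On the log2 scale MTF1 differed by -0.09 with a standard error of 0.22 and SLC30A1 by 0.02 with 0.27, with an adjusted p of 0.999 in limma for both and an exact permutation p of 0.7 and 0.8.

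**Figure D2:**
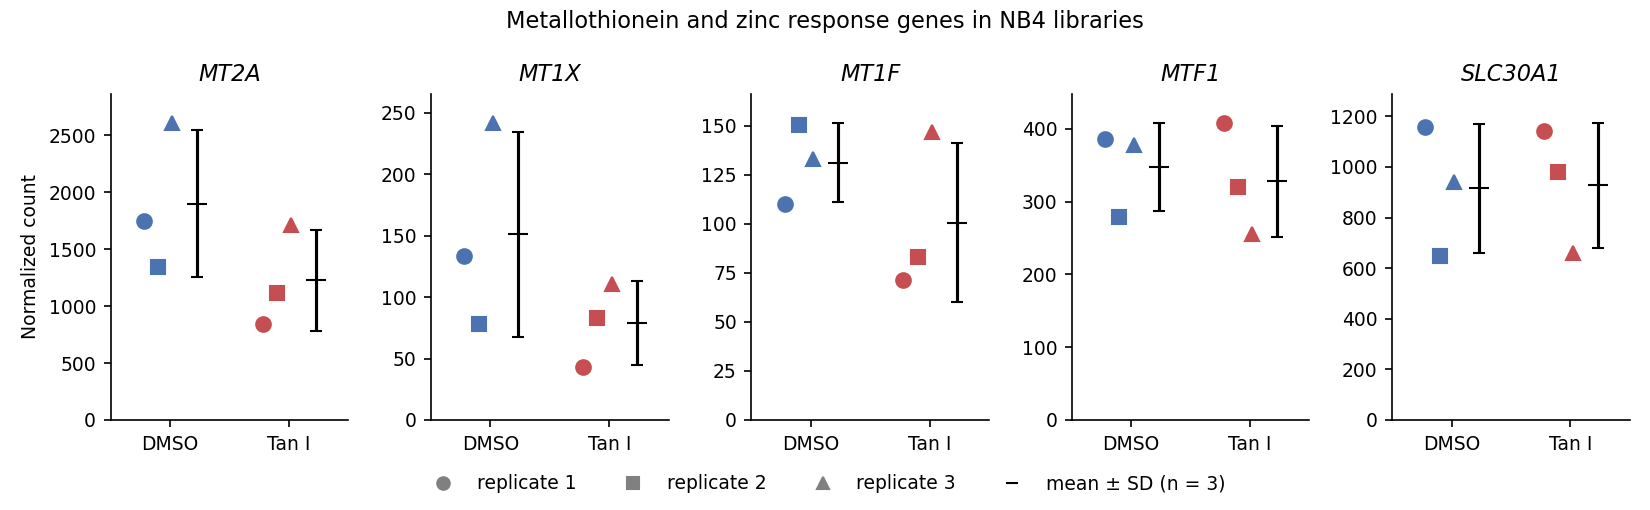
Normalized counts (y axis, starting at 0) of the 5 members with a row, 1 panel per gene, in the 3 DMSO and 3 Tan I libraries. Points are libraries and bars are the group mean with its SD, and in every panel the ranges of the groups overlap.

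Read against the whole table, 0 of the 5 members were called by limma at an unadjusted p of at most 0.05 and a log2 fold change of 0.25 or more in size, where 408 of 16887 tested genes (2.42%) were called, 223 higher and 185 lower with Tan I. When all libraries were scaled to equal totals, the split was 188 higher and 250 lower. The count of called genes hung on single libraries. Leaving out DMSO replicates 1, 2 and 3 in turn gave 180, 466 and 201. Leaving out Tan I replicates 1, 2 and 3 in turn gave 1496, 160 and 271. With the adjusted p, limma called 0 genes (0%), against 410 genes with an unadjusted p under 0.05. Those 410 were a smaller share of the 16887 tested genes than 0.05, the share to be met if no gene differed. With the adjusted p, edgeR called 0 and DESeq2 16 on the recovered reads, none of them a member. At the unadjusted p, edgeR called 2.42% and DESeq2 2.49% of the genes, and again 0 of the 5 members. The groups did not overlap for 1333 tested genes (7.89%) and for 0 of the 5 members. The median log2 fold change was -0.44 over the 5 members, with 4 negative and 1 positive, and -0.00162 over all tested genes.

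The spread between replicates was wide for the metallothioneins and for SLC30A1. The residual SD on the log2 scale was 0.50 for MT2A, 0.75 for MT1X, 0.41 for MT1F, 0.42 for SLC30A1 and 0.30 for MTF1. Among tested genes with a mean of 50 to 5000 normalized counts, 91.2% had a smaller SD than MT2A, 97.0% a smaller one than MT1X, 85.1% than MT1F, 85.2% than SLC30A1 and 66.2% than MTF1.

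One library decided the call in several cases. Without DMSO replicate 2, the lowest DMSO library for MT2A and MT1X, the log2 fold change was -0.86 for MT2A and -1.28 for MT1X. Both passed the unadjusted threshold (adjusted p = 0.734 in limma for each), as did 466 of 16887 tested genes. Without Tan I replicate 3, the highest of its group for all 3 metallothioneins, MT2A stood at -0.91, MT1X at -1.17 and MT1F at -0.75. All 3 passed the unadjusted threshold (adjusted p = 0.9998 in limma for each), as did 271 of 16887 tested genes. Without DMSO replicate 3 the differences shrank to -0.38 for MT2A and -0.47 for MT1X, and without Tan I replicate 1 to -0.40, -0.50 and, for MT1F, -0.23.

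MT2A and MT1X ran closely in parallel from library to library. Over the 6 libraries, the log2 levels of MT2A and MT1X had a Pearson r of 0.98 and a Spearman rho of 0.94. MT1F followed less closely, with r = 0.72 against MT2A and 0.59 against MT1X. These are descriptions over 6 libraries that share treatment and normalization, and exact stretches are shared between the transcripts: 51.0% of the 50-base stretches of MT1X and 11.1% of those of MT2A occur in transcripts of other genes. Reads mapping to several locations had been removed. At 100 bases, MT2A and MT1F shared none and MT1X 22.0%, all with the overlapping non-coding RNA. At 150 bases, the read length given by the study, MT2A and MT1F shared none and MT1X 6.67%, all with that RNA. MT2A made up most of the metallothionein signal in every library. It supplied 87.8%, 85.5% and 87.5% of the summed counts of the 3 genes in DMSO replicates 1 to 3 and 88.1%, 87.0% and 87.0% in Tan I replicates 1 to 3. Their exact Clopper-Pearson 95% intervals, which cover counting error only, were 86.3% to 89.2%, 83.7% to 87.1%, 86.4% to 88.5%, 85.9% to 90.05%, 85.0% to 88.8% and 85.1% to 88.6% in the same order, and all 6 overlapped. The smaller shares varied more, MT1X from 4.48% (Tan I replicate 1) up to 8.10% (DMSO replicate 3) and MT1F from 4.45% (DMSO replicate 3) up to 9.57% (DMSO replicate 2). The summed level ran from 1570 to 2982 normalized counts in DMSO and from 960 to 1975 in Tan I, so the ranges overlapped. The pseudogene MT1XP1 was the only other metallothionein gene listed of 16 searched, with means of 10.2 ± 5.40 under DMSO and 13.0 ± 8.40 under Tan I (normalized counts, SD, n = 3).

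MTF1 and SLC30A1 formed a separate pattern. They correlated with each other (r = 0.93, rho = 0.83) and, inversely, with the score of the first principal component (r = -0.99 and -0.94), whereas the r with that score was 0.07 for MT2A, -0.02 for MT1X and 0.61 for MT1F (rho = 0.66). MT1F correlated inversely with SLC30A1 (r = -0.78). With that score as a covariate in limma, MT2A had a log2 fold change of -0.70, MT1X of -0.93 and MT1F of -0.60, and all 3 passed the unadjusted threshold (adjusted p = 0.153, 0.242 and 0.101), as did 8.86% of all tested genes. In the same fit SLC30A1 was at 0.19 with an unadjusted p of 0.0296 in limma (adjusted p = 0.265), past the p threshold but short of the fold threshold, and MTF1 was at 0.03 and passed neither. The score was computed from the same 6 libraries and tested genes. The p-values of this fit therefore take an estimated covariate as known. The totals of normalized counts per library ran in the same order as the score, from 2.36e+07 (DMSO replicate 1) to 2.87e+07 (Tan I replicate 3). Listed genes at 0 numbered 178 in Tan I replicate 3, 46 in DMSO replicate 2 and at most 16 in the other libraries. What the component stands for was not tested.

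**Figure D3:**
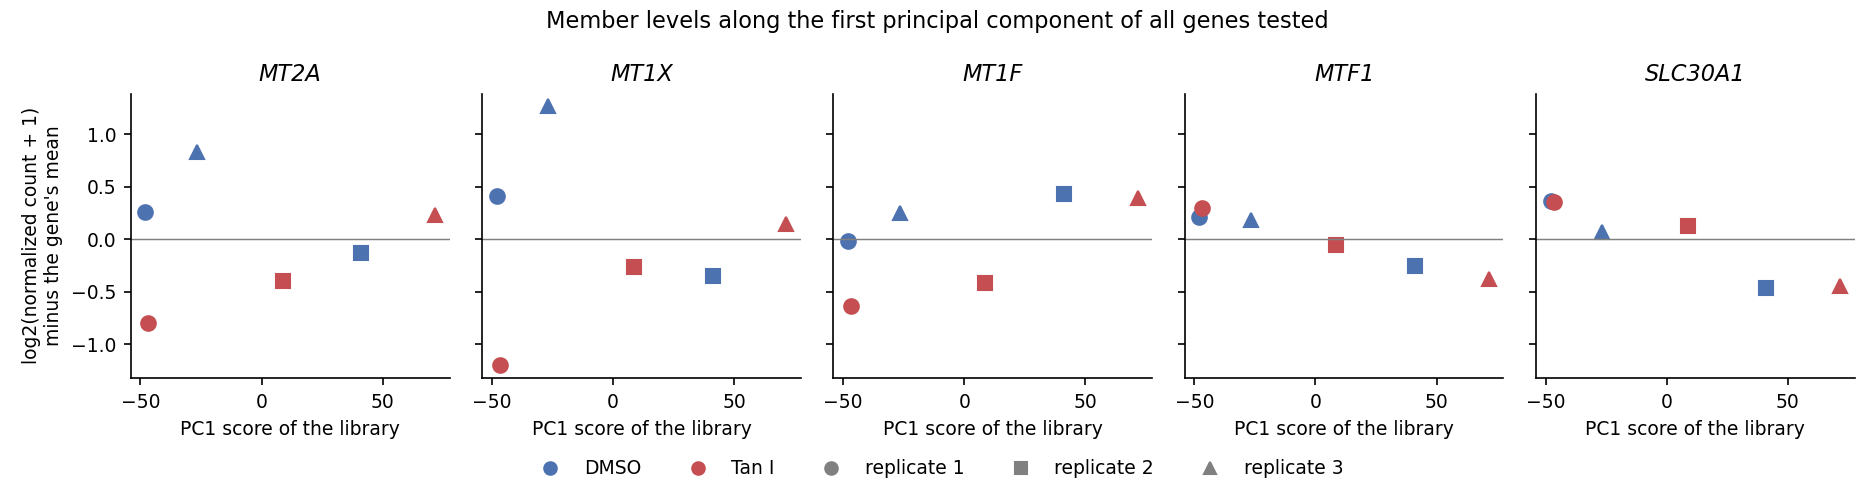
Log2(normalized count + 1) of the 5 members, less the mean of the gene (y axis), against the score of the library on the first principal component (x axis), for 6 libraries coloured by treatment, with the marker shape giving the replicate number. MTF1 and SLC30A1 decline along the score (r = -0.99 and -0.94), MT2A and MT1X show no trend along it (r = 0.07 and -0.02), and MT1F tends upward (r = 0.61).

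The genes with the pattern most like that of MT2A over the 6 libraries were NAPRT (r = 0.99), TRPM4 (0.98), PPM1M (0.98), MT1X (0.98) and CFAP45 (0.97), and 33 tested genes (0.195%) had an r above 0.9. After all libraries were scaled to equal totals, NAPRT dropped to 0.63 and PPM1M to 0.69. For SLC30A1 they were FAM91A1, SMYD4, CEP290, OTUD6B and PCDH12 (each r = 0.998), and 2079 tested genes (12.3%) exceeded 0.9, a much larger set than for MT2A.

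Levels can be compared between genes only per length. Per kilobase of the canonical transcript, MT2A stood far above the other members, with 4740 ± 1611 normalized counts under DMSO and 3057 ± 1114 under Tan I (SD, n = 3), and was the highest in 6 of 6 libraries. MT1X was at 374 ± 206 and 196 ± 84.3 and MT1F at 308 ± 47.5 and 236 ± 95.3, and these neighbours did not differ beyond their spread, MT1X being higher in 3 of 6 libraries. SLC30A1 followed at 155 ± 43.3 and 157 ± 41.7, below MT1F in 5 of 6 libraries with overlapping ranges, and MTF1 was lowest in 6 of 6 at 43.8 ± 7.56 and 41.3 ± 9.58. With the union of all exons as length, MT1X dropped to 87.4 ± 48.1 and MT1F to 70.8 ± 10.9 in DMSO, SLC30A1 moved above MT1X in 6 of 6 libraries, and in Tan I replicate 1 MT1X (24.9) and MT1F (38.5) lay below MTF1 (51.0). Of 16825 tested genes with a length, 97.5% had a lower level per kilobase than MT2A and 30.0% a lower one than MTF1.

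The other zinc and copper transport genes gave 0 calls at the unadjusted p by limma, and likewise by edgeR and DESeq2. Of 9 other zinc exporter genes of the SLC30 family 4 were tested and 0 called, with a median log2 fold change of 0.03. SLC30A9 was at 2906 ± 291 normalized counts under DMSO and 2749 ± 151 under Tan I (SD, n = 3), and SLC30A5, which loads zinc into the secretory pathway, at 1403 ± 194 and 1642 ± 346. Of 14 importer genes of the SLC39 family 12 were tested and 0 called, 9 of them positive, with a median of 0.11. Without Tan I replicate 1, 3 of the 12 were called, where 1496 of 16887 tested genes were. SLC39A7, which releases zinc from the endoplasmic reticulum, was at 6399 ± 553 and 7529 ± 1323, and SLC39A9 at 2154 ± 39.4 and 2145 ± 60.7. The extremes of the family, named after their values were seen, were SLC39A10 at -0.31 and SLC39A1 at 0.52 on the log2 scale, the latter with a mean of 11.7 normalized counts in DMSO. Of 10 copper genes 9 were tested and 0 called, with a median of 0.09. Without Tan I replicate 1, 2 of the 9 were called, again where 1496 of 16887 tested genes were. Superoxide dismutase SOD1 was at 3650.02 ± 448 under DMSO and 4378 ± 1104 under Tan I, and the copper importer SLC31A1 at 1474 ± 31.6 and 1547 ± 198.

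**Figure D4:**
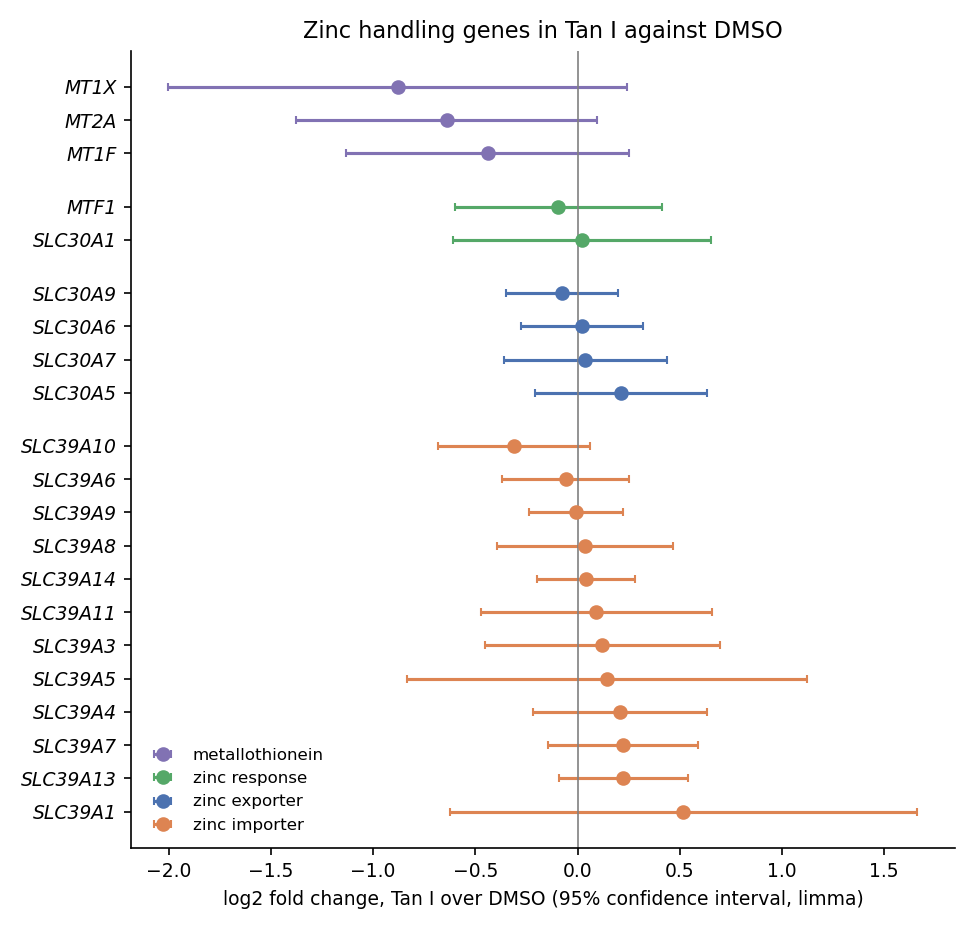
Log2 ratio of Tan I to DMSO from limma (x axis) with 95% confidence intervals, for the 5 members and the tested SLC30 and SLC39 genes, coloured by role. Every interval includes 0, that of MT2A running from -1.38 to 0.10.

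Among 10 stress genes that metals can induce, all tested, 1 was called higher and 0 lower, with a median log2 fold change of 0.31. TXNRD1, the cytosolic thioredoxin reductase, read 4271, 5192 and 4258 normalized counts in DMSO replicates 1 to 3 and 6072, 5785 and 5628 in Tan I replicates 1 to 3. The groups did not overlap, and TXNRD1 rose by 0.36 on the log2 scale with a standard error of 0.12 (adjusted p = 0.999 in limma). The call was lost after quantile normalization, after rescaling the totals and when DMSO replicate 1, DMSO replicate 3, Tan I replicate 1 or Tan I replicate 2 was left out, at fold changes of 0.29 to 0.36. With the first principal component as covariate the fold change was 0.34, with an adjusted p of 0.0462 in limma. In that fit 3 of the 10 genes were called, where 8.86% of all tested genes were. The limit given above for that fit applies. SRXN1, sulfiredoxin, named after its values were seen, was the other gene whose groups did not overlap, at 18.3 ± 6.40 and 10.00 ± 2.88 (SD, n = 3), and was not called. The groups did not overlap for 7.89% of all tested genes. The heat shock genes were low in DMSO replicate 2: HSPH1 read 9262, 3523 and 9558 in DMSO replicates 1 to 3 and 8862, 8803 and 6861 in Tan I replicates 1 to 3, and DNAJB1 8637, 2503 and 10752 against 7642, 9763 and 6988. Without DMSO replicate 2 their log2 fold changes turned from 0.26 to -0.21 and from 0.39 to -0.26. Whether that library's low heat shock level bears on its low MT2A and MT1X was not tested.

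Of 8 genes that glucocorticoids induce, all tested, 0 were called, with a median log2 fold change of -0.01. TSC22D3, the glucocorticoid-induced leucine zipper, was at 7907 ± 782 normalized counts under DMSO and 10115 ± 1442 under Tan I (log2 fold change 0.35, limma adjusted p = 0.999), and the receptor co-chaperone FKBP5 at 2542 ± 366 and 2424 ± 208 (SD, n = 3). TSC22D3 passed the unadjusted threshold in edgeR and DESeq2, and 2 of the 8 genes were called by limma without DMSO replicate 2 and 2 without Tan I replicate 1. In those 2 fits 466 and 1496 of 16887 tested genes were called. Of the 7 promyelocyte markers tested, 2 were called, where 2.42% of all tested genes were called. Among the 7 fold changes 4 were negative and 3 positive. Both called genes were lower: MPO fell by 0.78 on the log2 scale and CTSG, the granule protease cathepsin G, by 0.69 (adjusted p = 0.999 in limma for each). PML and RARA, named after their values were seen, were among the positive ones, at 0.10 and 0.22. For MPO the adjusted p was 4.33e-09 in DESeq2 and 0.9998 in edgeR. With the first principal component as covariate in limma it was 5.50e-05 for MPO and 3.21e-05 for CTSG, under the same limit of that fit. CTSG was no longer called without DMSO replicate 2, DMSO replicate 3 or Tan I replicate 1, at -0.51, -0.72 and -0.45. The surface marker CD33 was at 3712 ± 210 and 3903 ± 286. Of the 5 markers of other cell types tested, 0 were called, the epithelial EPCAM being at 178 ± 35.1 and 218 ± 37.9 and the endothelial PECAM1 at 221 ± 38.4 and 206 ± 36.6. Their part in the metallothionein levels was not tested.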

How the data were processed

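Gene expression in 6 NB4 libraries (3 DMSO, 3 Tan I) was measured by RNA-seq, and groups were taken from the sample labels. According to the study's methods and the submitters' processing notes, the authors used STAR to place paired-end reads on GRCh38, discarded multi-mapping reads, obtained gene counts from featureCounts and normalized them in DESeq2 (versions, annotation and strand setting are not given in the sources used here). The deposited signal values were read counts divided by 1 size factor per library. The deposited table also held the authors' mean, fold change, standard error, Wald statistic, p-value and adjusted p-value, which were not used.

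In each library 100% of the values were whole multiples of 1 read (tolerance 0.01), with size factors of 0.750 to 1.28, so reads were recovered. No 2 libraries were identical. The test was limma 3.58.1 in R 4.3.3 (trended eBayes) on log2(normalized count + 1), for 16887 genes with a mean of at least 10 (1738 left out), with Benjamini-Hochberg adjustment over all of them, and was checked on simulated data. A gene was called at p of at most 0.05 with a log2 fold change of 0.25 or more in size. Fold changes of low genes are understated by the pseudocount of 1. Single members also had an exact permutation test. Alternatives were pseudocounts of 0.1 and 10, no filter, a mean of at least 50, quantile normalization, equal totals, no trend, edgeR 4.0.16 and DESeq2 1.42.0 on recovered reads, a replicate block, the first principal component as covariate, each library left out and a fold of at least 1. Named genes were the members, every metallothionein listed, called genes and the 2 most abundant of each list, and the 5 genes most correlated with MT2A and SLC30A1. Members and lists were chosen with earlier results of these data known. Of the gene identifiers, 99.6% were in GENCODE 44.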

Additional observations from a re-analysis of the deposited data

How the results depend on the processing

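The count of called genes at the unadjusted p was 1496 with the first principal component as covariate, 49 at a log2 fold change of at least 1, and 160 to 1496 when 1 library was left out. The count at the adjusted p was 16 with DESeq2, which gave no adjusted p for 1965 genes, and 194 with the principal component. The count of called members was 2 under the replicate block (MT2A and MT1X), 3 with the principal component and 0 to 3 with 1 library left out, and 0 under the other 10 alternatives. Leaving out Tan I replicate 2 gave the lowest count of genes and Tan I replicate 1 the highest. Same-numbered libraries deviated from their group means with correlations of 0.751, -0.0881 and -0.451. For differently numbered libraries the correlations ran from -0.747 to 0.758, the highest being DMSO replicate 2 with Tan I replicate 3. The labels do not state whether the numbers pair the libraries, and correlations over 3 pairs cannot settle it. The block moved the count of genes to 348. In the block fit, limma gave an unadjusted p of 0.00858 for MT2A and 0.0389 for MT1X (adjusted p = 0.999 for each).

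MT2A, MT1X and MT1F kept a negative log2 fold change in every setting, from -0.91 to -0.38, -1.28 to -0.47 and -0.75 to -0.23. Reversed directions were MTF1 at 0.0319 and SLC39A9 at 0.00406 with the principal component and SLC30A1 at -0.0373 with equal totals. With 1 library left out, the ranges crossed 0 for MTF1 (-0.26 to 0.0717), SLC30A1 (-0.21 to 0.25), MT1XP1 (-0.20 to 0.63), SLC30A9 (-0.12 to 0.00416), SLC39A9 (-0.0273 to 0.0135), SLC31A1 (-0.00105 to 0.17), HSPH1 (-0.21 to 0.51), DNAJB1 (-0.26 to 0.79), HSPA1B (-0.0653 to 1.04), FKBP5 (-0.12 to 0.0531) and PECAM1 (-0.23 to 0.0324). The cause was not tested. The correlations under other scalings were added after seeing the data. MT1X, MT1F and MT1XP1 rest on few reads.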
